A study of Mus musculus with 4 samples.

Results

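The MYC, MAX and MXD network is a family of transcription factors with a basic helix-loop-helix leucine zipper domain that compete for the same partner and the same DNA element. Its members here were the 9 genes *Myc*, *Mycn*, *Max*, *Mxd1*, *Mxd3*, *Mxd4*, *Mxi1*, *Mnt* and *Mga*, taken by gene symbol from the 24346 genes in the deposited tables, and all 9 symbols were found. MYC proteins bind DNA as a pair with MAX and activate genes of ribosome assembly, nucleotide synthesis, metabolism and the cell cycle. The MXD proteins, MXI1, MNT and MGA also pair with MAX, and they repress such genes. In bone marrow, *Myc* is known for its high level in dividing progenitors, and *Mxd1* for its rise as granulocytes mature and stop dividing.

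*In vitro* MDSCs are immature myeloid cells, grown here from bone marrow (BM) cells of female C57BL/6J mice that were used at 6 to 8 weeks of age. Control cultures received 40 ng/ml GM-CSF for 4 days. G-CSF cultures received the same GM-CSF for the same 4 days with 5 ng/ml G-CSF added. RNA of 2 cultures per group was sequenced, and the comparison asked which transcripts differed between cells that matured with and without G-CSF. The study calls its replicates biological and does not say whether they came from separate mice, so the p-values measure the spread between these libraries.

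Expression is given in FPKM, which scales reads to transcript length and to the number of mapped reads, so that levels of different genes can be set side by side. The number of reads was estimated from the steps between the lowest values, at 13.4 and 14.2 M reads in the Control libraries and 12.45 and 15.6 M in the G-CSF libraries. Fold changes compare G-CSF with Control on the log2(FPKM + 0.1) scale. A gene was called when its p-value, adjusted over the 11922 genes tested, was under 0.05.

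G-CSF cultures had more *Myc* and less *Mxd1* RNA than Control cultures, and the other 6 members tested were not called. Thus 1 of 8 members rose and 1 of 8 fell, at an adjusted p under 0.05. Of all genes tested, 12.7% rose and 11.5% fell by the same threshold, together 24.2%, so the share of members called was close to that of all genes. No member was called with a fold change over 2, which 1.41% of all genes were. Both G-CSF values lay above both Control values for 2 of 8 members, *Myc* and *Mga*, against 33.7% of all genes. Both lay below for 4 of 8, *Max*, *Mxd1*, *Mxd4* and *Mnt*, against 32.6% of all genes. The fit draws the variance of each gene toward a value that follows its expression level. With 1 common value for all genes in place of this trend, 1.01% of all genes were called and 0 of 8 members (limma). In that fit, *Myc* and *Mxd1* had an unadjusted p under 0.05, 1 in each direction, as had 2126 genes that were higher and 2053 that were lower among all 11922. The 8 members tested had between 339 and 5796 estimated reads in each library, so that none passed the filter through 1 group alone.

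*Myc* encodes the activator c-MYC. Its level was 54.7 and 52.3 FPKM in Control and 79.1 and 70.1 FPKM in G-CSF, from 1226, 1242, 1647 and 1828 estimated reads. Both G-CSF libraries stood above both Control libraries, and the gap between the groups was wider than the spread within either. Group levels (mean ± SD of n = 2, in FPKM) were 53.5 ± 1.68 for Control and 74.6 ± 6.39 for G-CSF. This was a rise of 1.39-fold, or 0.48 on the log2 scale, with a standard error of 0.067 and an adjusted p of 0.00671. The 95% confidence interval of the log2 fold change ran from 0.32 to 0.64. Of all genes tested, 11.0% had a larger log2 fold change in either direction and 3.86% a smaller p. Without the variance trend the adjusted p was 0.0599 and the call was lost, and over the 11 alternatives without a replicate block it ranged from 0.0061 to 0.0599. *Mycn*, which encodes the related activator N-MYC, was close to the limit of detection. Its level was 0.125 and 0.089 FPKM in Control and 0 and 0.107 FPKM in G-CSF, which stand for about 4, 3, 0 and 4 reads. *Mycn* was too low to be tested, and its groups overlapped.

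*Max* encodes the partner with which the other members bind the shared DNA element. It measured 51.9 and 50.7 FPKM in Control and 46.1 and 48.5 FPKM in G-CSF. The G-CSF libraries lay below the Control libraries, at a distance similar to the spread within G-CSF. On the log2 scale the difference was -0.12 (adjusted p = 0.138, standard error 0.0503), and its 95% confidence interval ran from -0.24 to 0.004. *Max* was therefore not called.

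*Mxd1* encodes MXD1, the repressor also known as MAD1. It was at 97.1 and 86.1 FPKM in Control and at 57.2 and 61.3 FPKM in G-CSF, from 5796, 5448, 3176 and 4263 estimated reads. Each G-CSF library was well under each Control library, and no other member differed as much. Group levels (mean ± SD of n = 2, in FPKM) were 91.6 ± 7.76 for Control and 59.3 ± 2.89 for G-CSF. *Mxd1* fell by 0.62 on the log2 scale, with a standard error of 0.0693, an adjusted p of 0.00422 and a 95% confidence interval from -0.79 to -0.46. That is a level 1.54-fold lower in G-CSF. Of all genes tested, 5.75% had a larger log2 fold change in either direction and 1.46% a smaller p. Without the variance trend the adjusted p was 0.0536 and this call was lost too, and over the 11 alternatives without a replicate block it ranged from 0.00209 to 0.0536.

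None of the other MXD genes was called in the main fit, and their difference from *Mxd1* was not tested. *Mxd3*, which encodes a repressor found mostly in dividing cells, was at 24.8 and 21.4 FPKM in Control and at 24.6 and 20.5 FPKM in G-CSF. *Mxi1*, which encodes the repressor MXI1 (also MXD2), was at 21.8 and 20.03 FPKM in Control and at 21.6 and 19.5 FPKM in G-CSF. For both genes the groups overlapped, and replicate 1 was the higher library in both groups. On the log2 scale *Mxd3* differed by -0.04 (95% confidence interval -0.29 to 0.22, standard error 0.108, adjusted p = 0.832). *Mxi1* differed by -0.03 (95% confidence interval -0.21 to 0.16, standard error 0.0763, adjusted p = 0.825). The sign of both turned when Control replicate 1 or G-CSF replicate 2 was left out, with a log2 fold change of up to 0.10 for *Mxd3* and 0.04 for *Mxi1*. *Mxd4*, which encodes the repressor MAD4, was at 23.6 and 21.6 FPKM in Control and at 16.6 and 20.1 FPKM in G-CSF. Its groups did not overlap, but the G-CSF libraries differed from each other by more than the nearest libraries of the groups. *Mxd4* differed by -0.30 on the log2 scale (standard error 0.1002, adjusted p = 0.0714), with a 95% confidence interval from -0.54 to -0.06 that excluded 0 before adjustment. It was called when G-CSF replicate 2 was left out, at a log2 fold change of -0.44 and an adjusted p of 0.0222. Without G-CSF replicate 1 the log2 fold change was -0.165 and the adjusted p 0.249, the highest over the 11 alternatives without a replicate block.

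*Mnt* encodes a repressor found in most cell types, whether dividing or resting. It measured 12.9 and 12.1 FPKM in Control and 11.3 and 11.5 FPKM in G-CSF. The groups did not overlap, and the difference was -0.13 on the log2 scale (95% confidence interval -0.31 to 0.04, standard error 0.0733, adjusted p = 0.226). Without Control replicate 1 this difference was -0.083. *Mga* encodes the largest protein of the network, which also carries a T-box domain and belongs to a Polycomb complex. It was at 8.17 and 8.10 FPKM in Control and at 8.48 and 8.54 FPKM in G-CSF. Among the members tested, *Mga* had the smallest SD between the libraries of each group (0.049 FPKM in Control and 0.046 in G-CSF). Its G-CSF values were slightly above Control, while *Mxd3* and *Mxi1* differed less between the groups. The difference was 0.06 on the log2 scale (95% confidence interval -0.12 to 0.25, standard error 0.0779, adjusted p = 0.579).

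**Figure D1:**
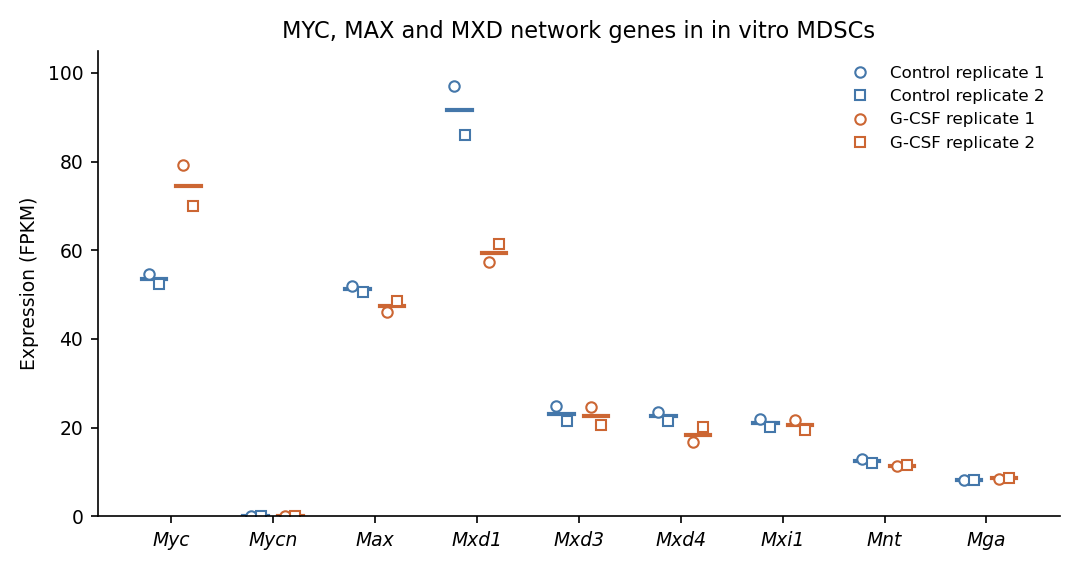
Expression of the 9 network genes in FPKM (vertical axis) in each library, with circles for replicate 1, squares for replicate 2 and a bar at the mean of each group of 2. *Myc* lies between 52.3 and 54.7 FPKM in Control and between 70.1 and 79.1 in G-CSF, *Mxd1* between 86.1 and 97.1 in Control and between 57.2 and 61.3 in G-CSF, and the groups of the other genes lie closer to each other in FPKM.

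The order of the FPKM levels within a group differed between the conditions at its top. In Control, *Mxd1* (mean 91.6 FPKM) was followed by *Myc* (53.5), *Max* (51.3), *Mxd3* (23.1), *Mxd4* (22.6), *Mxi1* (20.9), *Mnt* (12.5), *Mga* (8.13) and *Mycn* (0.107). In G-CSF, *Myc* (74.6) came first, followed by *Mxd1* (59.3), *Max* (47.3), *Mxd3* (22.5), *Mxi1* (20.6), *Mxd4* (18.4), *Mnt* (11.4), *Mga* (8.51) and *Mycn* (0.0535). *Myc* and *Mxd1* thus changed places, and their ranges did not overlap in either group. Among *Mxd3*, *Mxd4* and *Mxi1*, neighbours in this order overlapped in both groups, so their places follow the means alone. In G-CSF, however, *Mxd3* (20.5 to 24.6 FPKM) lay above *Mxd4* (16.6 to 20.1 FPKM). All other neighbours were separated in both libraries.

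Ratios of FPKM within a library describe the balance of RNA between activator and repressors, and not that of the proteins. The ratio of *Myc* to *Mxd1* was 0.564 and 0.608 in Control and 1.38 and 1.14 in G-CSF. *Mxd1* thus exceeded *Myc* in both Control libraries, and *Myc* exceeded *Mxd1* in both G-CSF libraries. The sum of *Mxd1*, *Mxd3*, *Mxd4* and *Mxi1* was 167.2 and 149.1 FPKM in Control and 120.0 and 121.4 FPKM in G-CSF. *Mxd1* made up 58.0% and 57.8% of this sum in Control and 47.7% and 50.5% in G-CSF. The ratio of *Myc* to this sum was 0.327 and 0.351 in Control and 0.659 and 0.577 in G-CSF. Relative to *Max*, *Myc* stood at 1.05 and 1.03 in Control and at 1.72 and 1.44 in G-CSF. In none of these ratios and sums did the groups overlap, but an exact two-sided permutation test of 2 libraries against 2 cannot give a p under 0.333. All partners of MAX together, relative to *Max*, gave ratios of 4.68 and 4.38 in Control and 4.75 and 4.36 in G-CSF, where the groups overlapped.

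Some genes followed *Myc* and *Mxd1* closely over the 4 libraries. Likeness was measured as the root mean square difference of log2(FPKM + 0.1), centred on the mean of each gene, among 10776 genes with a mean of at least 1 FPKM. Nearest to *Myc* were *Cep44*, which encodes a centrosomal protein (difference 0.00912), *Grhpr*, which encodes glyoxylate and hydroxypyruvate reductase (0.0119), and *Dhdh*, which encodes dihydrodiol dehydrogenase (0.0185). *Grhpr*, for example, was at 17.9 and 17.0 FPKM in Control and at 26.3 and 23.1 FPKM in G-CSF. Nearest to *Mxd1* were *Mex3b*, which encodes an RNA-binding protein (0.0144), *Crlf2*, which encodes a subunit of the TSLP receptor (0.0233), and *Egr2*, which encodes a zinc finger transcription factor (0.0236). *Crlf2* was at 36.1 and 32.2 FPKM in Control and at 20.8 and 23.4 FPKM in G-CSF. With 4 libraries in 2 groups, many genes can lie this near by chance, and the likeness carries no test.

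The further MYC gene *Mycl* and the parallel arm around MLX, a MAX-like partner, were examined as well. Of 3 genes tested, 1 rose and 0 fell (of all genes tested, 12.7% rose and 11.5% fell), with a median log2 fold change of -0.07. *Mlx* was at 35.8 and 36.5 FPKM in Control and at 41.1 and 41.2 FPKM in G-CSF. Both G-CSF libraries were above Control with little spread, and *Mlx* rose by 0.19 on the log2 scale (standard error 0.0476, adjusted p = 0.0329). This call was lost without the variance trend (adjusted p = 0.106) and with any 1 library left out (adjusted p from 0.0874 to 0.134), and the lowest adjusted p over the alternatives without a replicate block was 0.033. *Mycl*, which encodes the activator L-MYC, was at 3.15 and 2.14 FPKM in Control and at 1.87 and 1.34 FPKM in G-CSF. The groups did not overlap, but replicates differed widely, and the log2 fold change of -0.68 had a standard error of 0.236 and an adjusted p of 0.0805. Without Control replicate 2 it was -0.94, with an adjusted p of 0.0359. Without Control replicate 1 it was -0.41, with an adjusted p of 0.298, the highest over the alternatives without a replicate block, and without G-CSF replicate 2 it was -0.45. *Mlxip*, which encodes the glucose-sensing factor MondoA, was at 16.6 and 17.0 FPKM in Control and at 16.5 and 15.6 FPKM in G-CSF (log2 fold change -0.07, adjusted p = 0.490). This fold change was -0.026 without G-CSF replicate 2 and -0.105 without G-CSF replicate 1. *Mlxipl*, which encodes its relative ChREBP, had at most about 3 reads in a library and was not tested.

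Genes for partners and coactivators of MYC, the proteins that it recruits to chromatin, were partly higher in G-CSF. Of 17 tested, 5 rose and 0 fell, with a median log2 fold change of 0.07. Among all 11922 genes tested, 1511 rose and 1375 fell, with a median of 0.0014. *Ruvbl2* and *Ruvbl1* encode the paired ATPases of chromatin-remodelling complexes. *Ruvbl2* was at 51.2 and 46.3 FPKM in Control and at 70.9 and 71.0 FPKM in G-CSF (log2 fold change 0.54, standard error 0.0588, adjusted p = 0.00398). *Ruvbl1* was at 29.4 and 25.8 FPKM in Control and at 38.5 and 37.7 FPKM in G-CSF (log2 fold change 0.47, standard error 0.072, adjusted p = 0.00828), with 40.5% of the 75-base windows of its transcripts shared with another gene, *Gm5837*. Both ATPase genes were thus higher in both G-CSF libraries. *Kat2a*, which encodes the histone acetyltransferase GCN5, was at 13.5 and 14.9 FPKM in Control and at 17.9 and 19.95 FPKM in G-CSF (log2 fold change 0.41, standard error 0.0838, adjusted p = 0.0185). *Hcfc1*, which encodes a cofactor that binds MYC directly, was at 40.2 and 41.0 FPKM in Control and at 46.9 and 47.8 FPKM in G-CSF (log2 fold change 0.22, standard error 0.0469, adjusted p = 0.0206). The call of *Kat2a* was lost without Control replicate 1 (adjusted p = 0.0622) or G-CSF replicate 2 (0.0644), and that of *Hcfc1* with any library left out (0.0565 to 0.0858). The remaining call, *Actl6a* (log2 fold change 0.22, adjusted p = 0.0296), was outside the naming rule and is named after its values were seen. It was lost without Control replicate 1 (adjusted p = 0.072), Control replicate 2 (0.104) or G-CSF replicate 2 (0.118), and without the variance trend (0.1045). Without the variance trend, the adjusted p of the 4 genes with full values was between 0.0536 and 0.0876, and the lowest over all alternatives without a replicate block was 0.00295.

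Genes for the turnover of MYC protein, which is marked for decay by phosphorylation and ubiquitin, included 3 that rose and 0 that fell among 13 tested (of all genes tested, 12.7% rose and 11.5% fell). The median log2 fold change was 0.14. This list was shortened by 1 gene after its values were seen, for a reason other than its values, so its count and median are not those of the list first drawn up. *Set* and *Cip2a* encode inhibitors of the phosphatase PP2A, which promotes the decay of MYC. *Set* was at 137.5 and 135.7 FPKM in Control and at 199.9 and 192.9 FPKM in G-CSF (log2 fold change 0.52, standard error 0.0427, adjusted p = 0.00205), with 27.9% of its windows shared with pseudogenes and other genes. *Cip2a*, listed under an older symbol, was at 16.9 and 17.3 FPKM in Control and at 23.6 and 21.3 FPKM in G-CSF (log2 fold change 0.39, standard error 0.0704, adjusted p = 0.0128). Both inhibitor genes were higher in both G-CSF libraries. *Aurka*, which encodes a mitotic kinase known to shield N-MYC from decay, was at 38.6 and 40.7 FPKM in Control and at 53.8 and 55.1 FPKM in G-CSF (log2 fold change 0.46, standard error 0.0507, adjusted p = 0.00422). *Ppp2r5a*, which encodes a regulatory subunit of PP2A, was at 90.4 and 89.7 FPKM in Control and at 75.6 and 83.3 FPKM in G-CSF (log2 fold change -0.18, standard error 0.0569, adjusted p = 0.0607), with 5.9% of its windows shared with other genes. Its groups did not overlap, and it was not called. *Ppp2r5a* was called with upper-quartile scaling (adjusted p = 0.0401) and without G-CSF replicate 2 (0.0326), and its adjusted p ranged up to 0.244 over the alternatives without a replicate block. The adjusted p of *Set*, *Aurka* and *Cip2a* was between 0.0505 and 0.0647 without the variance trend, and the lowest over all alternatives without a replicate block was 0.00209.

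The corepressors that MXD proteins and MNT recruit, histone deacetylases held by SIN3 scaffolds and the related NCOR complexes, had 4 genes that rose and 0 that fell among 16 tested (of all genes tested, 12.7% rose and 11.5% fell), with a median log2 fold change of 0.05. The genes called encode deacetylases and histone-binding subunits that these complexes share with others, and not the SIN3 or NCOR scaffolds. *Hdac2* was at 32.0 and 30.6 FPKM in Control and at 40.1 and 40.6 FPKM in G-CSF (log2 fold change 0.36, standard error 0.0514, adjusted p = 0.00673). *Hdac1* was at 72.6 and 76.7 FPKM in Control and at 93.4 and 87.9 FPKM in G-CSF (log2 fold change 0.28, standard error 0.0528, adjusted p = 0.0143), with 29.3% of its windows shared with other genes. Both are class I deacetylases, and both were higher in each G-CSF library. *Rbbp4* and *Rbbp7* encode the histone-binding subunits. *Rbbp4* was at 44.1 and 43.1 FPKM in Control and at 53.5 and 52.2 FPKM in G-CSF (log2 fold change 0.28, standard error 0.0468, adjusted p = 0.0107). *Rbbp7* was at 78.4 and 81.0 FPKM in Control and at 100.1 and 92.6 FPKM in G-CSF (log2 fold change 0.27, standard error 0.0532, adjusted p = 0.0155). Leaving out Control replicate 1 or G-CSF replicate 1 ended the calls of *Hdac1* (adjusted p = 0.0542 and 0.0552) and *Rbbp7* (0.0553 and 0.0587). The adjusted p of these 4 genes was between 0.0568 and 0.0869 without the variance trend, and the lowest over all alternatives without a replicate block was 0.00675.

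MGA and MAX also belong to a Polycomb complex, PRC1.6. Of 9 genes for its other subunits, all tested, 3 rose and 0 fell (of all genes tested, 12.7% rose and 11.5% fell), and the median log2 fold change was 0.23. *Tfdp1*, which encodes the partner of E2F proteins, was at 97.3 and 98.2 FPKM in Control and at 126.9 and 124.2 FPKM in G-CSF (log2 fold change 0.36, standard error 0.0416, adjusted p = 0.00458), with 11.5% of its windows shared with a pseudogene. *Cbx3*, which encodes the heterochromatin protein HP1 gamma, was at 72.0 and 74.4 FPKM in Control and at 94.1 and 89.8 FPKM in G-CSF (log2 fold change 0.33, standard error 0.0475, adjusted p = 0.00712), with 6.51% of its windows shared. *Rybp*, which encodes a RING1-binding subunit, was at 13.6 and 13.6 FPKM in Control and at 16.4 and 17.3 FPKM in G-CSF (log2 fold change 0.30, standard error 0.0652, adjusted p = 0.0218), with 6.82% of its windows shared with a pseudogene. In all 3 genes the G-CSF libraries stood above the Control libraries. *L3mbtl2*, which encodes a reader of methylated histones, was at 13.1 and 14.4 FPKM in Control and at 16.1 and 16.2 FPKM in G-CSF, and was not called (log2 fold change 0.23, standard error 0.0725, adjusted p = 0.0608). The call of *Rybp* was lost without Control replicate 1 (adjusted p = 0.0691), Control replicate 2 (0.064) or G-CSF replicate 2 (0.0885), and those of all 3 without the variance trend (0.0548 to 0.0667). The lowest adjusted p over all alternatives without a replicate block was 0.00467 among them.

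Genes of receptors and factors known to act on *Myc* were examined as well. Of 15 tested, 2 rose and 3 fell, where 12.7% and 11.5% of all genes tested did, and the median log2 fold change was -0.11. *Csf2ra*, which encodes the alpha chain of the GM-CSF receptor, was at 137.1 and 136.0 FPKM in Control and at 96.9 and 102.7 FPKM in G-CSF (log2 fold change -0.45, standard error 0.0466, adjusted p = 0.0036). *Csf3r*, which encodes the G-CSF receptor, was at 50.2 and 48.3 FPKM in Control and at 34.6 and 40.3 FPKM in G-CSF (log2 fold change -0.40, standard error 0.0777, adjusted p = 0.0158). RNA of both receptor chains was thus lower in each library with G-CSF. *Cebpb*, which encodes a transcription factor of granulocyte and monocyte development, was at 175.5 and 155.8 FPKM in Control and at 130.0 and 139.1 FPKM in G-CSF (log2 fold change -0.30, standard error 0.0675, adjusted p = 0.0242). *Fubp1*, which encodes a protein that binds an element upstream of *Myc*, was at 22.7 and 25.7 FPKM in Control and at 30.3 and 29.7 FPKM in G-CSF (log2 fold change 0.31, standard error 0.0724, adjusted p = 0.026). The other gene that rose, *Hnrnpk* (log2 fold change 0.18, adjusted p = 0.0292), was outside the naming rule and is named after its values were seen. Its call was lost with any 1 library left out (adjusted p from 0.0619 to 0.126) and without the variance trend (0.124). The call of *Cebpb* was lost without Control replicate 1 (adjusted p = 0.0747), without G-CSF replicate 1 (0.0852) and with no filter on low values (0.0517), and that of *Fubp1* without Control replicate 1 (0.0929), G-CSF replicate 1 (0.0834) or G-CSF replicate 2 (0.0577). The adjusted p of the 4 genes with full values was between 0.0536 and 0.108 without the variance trend, and the lowest over all alternatives without a replicate block was 0.00315.

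Genes known as targets that MYC activates were mostly higher in G-CSF. Their list, like the others, was chosen with earlier results of these data known. Of 66 listed, 65 were tested, 49 rose and 0 fell, and 16 were not called (of all genes tested, 12.7% rose and 11.5% fell). The median log2 fold change was 0.35, against 0.0014 for all genes tested, and 64 of the 65 estimates were above 0, the exception being *Ipo4* at -0.02. Both G-CSF values lay above both Control values for 59 of the 65, against 33.7% of all genes tested. No change reached 2-fold, with log2 fold changes between -0.02 and 0.68. The FPKM of all 66 genes summed to 3800 and 3807 in Control and to 5019 and 5012 in G-CSF. *Npm1*, which encodes the nucleolar chaperone nucleophosmin, was at 438.0 and 447.0 FPKM in Control and at 704.2 and 709.8 FPKM in G-CSF, with 18.1% of its windows shared with pseudogenes. *Npm1* rose by 0.68 on the log2 scale (standard error 0.0435, adjusted p = 0.00105). *Ncl*, which encodes the nucleolar protein nucleolin, was at 73.9 and 74.2 FPKM in Control and at 113.8 and 115.1 FPKM in G-CSF (log2 fold change 0.63, standard error 0.0414, adjusted p = 0.0011). In both nucleolar genes the replicates were nearly equal and the groups far apart. *Shmt2*, which encodes a mitochondrial enzyme of one-carbon metabolism, was at 46.4 and 46.4 FPKM in Control and at 71.0 and 73.3 FPKM in G-CSF (log2 fold change 0.63, standard error 0.0453, adjusted p = 0.00137). *Hspd1*, which encodes the mitochondrial chaperone HSP60, was at 151.9 and 154.1 FPKM in Control and at 222.9 and 229.2 FPKM in G-CSF (log2 fold change 0.56, standard error 0.0418, adjusted p = 0.00158), with 29.6% of its windows shared with pseudogenes. Without the variance trend 3 of the 65 were called, *Npm1*, *Ncl* and *Shmt2*, at adjusted p-values between 0.0487 and 0.0488 (limma). In that fit, 54 of the 65 had an unadjusted p under 0.05, all of them higher. Of all 11922 genes tested, 50 were then called higher and 70 lower. At an unadjusted p under 0.05, 2126 of all genes were higher and 2053 lower. The adjusted p of *Hspd1* was then 0.0502, and over all alternatives without a replicate block the lowest adjusted p among these 4 genes was 0.0009.

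Genes known to be repressed by MYC gave 2 that fell and 0 that rose among 7 tested (of all genes tested, 12.7% rose and 11.5% fell), with a median log2 fold change of -0.25. *Gadd45a*, which encodes a growth arrest and DNA damage protein, was at 14.8 and 13.9 FPKM in Control and at 10.7 and 9.89 FPKM in G-CSF (log2 fold change -0.47, standard error 0.0792, adjusted p = 0.0105). *Cdkn1a*, which encodes the cell cycle inhibitor p21, was at 196.5 and 200.3 FPKM in Control and at 155.9 and 170.2 FPKM in G-CSF (log2 fold change -0.28, standard error 0.0535, adjusted p = 0.0143). Both were lower in each G-CSF library than in either Control library. *Cdkn1b*, which encodes the inhibitor p27, was at 23.2 and 19.8 FPKM in Control and at 18.8 and 17.2 FPKM in G-CSF, and was not called (log2 fold change -0.25, adjusted p = 0.0913). *Cebpa*, which encodes a transcription factor of granulocyte commitment and also stands among the upstream factors, was at 25.0 and 22.4 FPKM in Control and at 28.0 and 27.6 FPKM in G-CSF, and was not called (log2 fold change 0.23, adjusted p = 0.0533). *Cdkn1a* lost its call without G-CSF replicate 1 (adjusted p = 0.0505) and, like *Gadd45a*, without the variance trend (0.0863 and 0.0568), whereas *Cdkn1b* without Control replicate 2 (0.0352) and *Cebpa* without Control replicate 1 (0.0369) were called. Over all alternatives without a replicate block, the adjusted p of these 4 genes ranged from 0.00934 to 0.356.

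**Figure D2:**
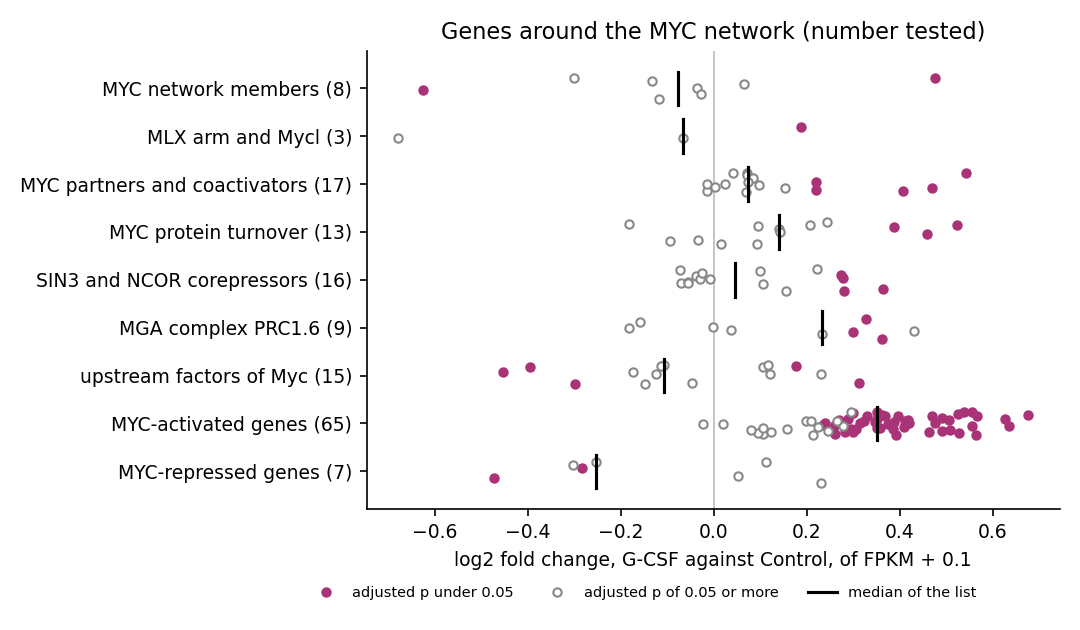
Log2 fold changes of FPKM + 0.1 in G-CSF against Control (horizontal axis) for each tested gene of 9 lists around the network (vertical axis, with the number tested). Filled points have an adjusted p under 0.05, open points do not, and black bars mark the medians: 64 of 65 MYC-activated genes lie above 0 with a median of 0.35, while network members run from -0.62 (*Mxd1*) to 0.48 (*Myc*).

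The DNA element bound by pairs of MYC or MXD proteins with MAX is the E-box CACGTG, which reads the same on both strands. Promoter windows from 250 bases before to 50 bases after the transcription start were taken from RefSeq (GRCm38.p6), and 8 of the 9 network genes, all but *Myc*, had at least 1 window. The motif was in 7.15% of all 32851 windows and in 10.1% of the windows of genes tested. Among network genes, 3 of 10 windows held it, those of *Max*, *Mxd4* and *Mnt*. Among MYC-activated genes, 16 of 56 genes with a window held it, or 28.6%, against 12% of the genes tested that had a window. Within that list, 9 of the 16 genes with the motif were called higher, at a median log2 fold change of 0.30. Of genes without it in their window, 31 of 39 were called higher, at a median of 0.37. A match describes these letters in this window and does not show that a protein binds there. The sites of the network genes are printed below with 12 bases on either side and the motif in capitals, because these genes are both members and carriers of the element. *Hspd1* is added from the MYC-activated genes named above, and *Cdk4*, chosen after the matches were seen, because it had the most in that list. All are written 5′ to 3′ on the strand of the gene. The *Mxd4* site lies at chr5:34187912-34187941 on the minus strand, that of *Mnt* at chr11:74830789-74830818 on the plus strand and that of *Max* at chr12:76962234-76962263 on the minus strand. The motif begins at position -219, -123 and -3, counted from the transcription start. The *Hspd1* site lies at chr1:55088306-55088335 on the minus strand, with the motif at position -80. The *Cdk4* sites lie on the plus strand at chr10:127063351-127063380, chr10:127063405-127063434, chr10:127063425-127063454 and chr10:127063512-127063541, with the motif at positions -172, -118, -98 and -11. *Cdk4*, which encodes a kinase of the G1 phase, rose by 0.39 on the log2 scale (standard error 0.0407, adjusted p = 0.00381, or 0.0536 without the variance trend, where it was not called).
Mxd4: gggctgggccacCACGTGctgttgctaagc
Mnt: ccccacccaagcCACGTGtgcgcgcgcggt
Max: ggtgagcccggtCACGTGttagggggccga
Hspd1: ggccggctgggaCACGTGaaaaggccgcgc
Cdk4 at -172: atggcagccagtCACGTGccacacagcgta
Cdk4 at -118: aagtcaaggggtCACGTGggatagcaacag
Cdk4 at -98: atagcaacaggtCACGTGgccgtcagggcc
Cdk4 at -11: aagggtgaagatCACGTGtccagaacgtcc

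Markers of maturation and division differed between the groups as well. In bulk samples, fewer cells of a type and less RNA per cell cannot be told apart. For comparison with the counts below, 12.7% of all genes tested rose and 11.5% fell. All 4 genes of the primary granule stage, when granulocyte precursors make their first granules, rose (*Mpo*, *Elane*, *Prtn3* and *Ctsg*), with a median log2 fold change of 1.34. Their FPKM summed to 811.6 and 688.3 in Control and to 1882 and 1770 in G-CSF, and the most abundant was *Prtn3*, which encodes proteinase 3, at 273.1 and 223.7 FPKM in Control and 691.5 and 637.5 FPKM in G-CSF. Of 7 genes of later neutrophils, 6 fell and 0 rose, with a median of -1.08. Their sum was 9528 and 8776 FPKM in Control and 5225 and 5573 FPKM in G-CSF, led by *Ngp*, which encodes a granule protein of neutrophils, at 5434 and 4486 FPKM in Control and 3398 and 3361 FPKM in G-CSF. All 4 genes of the early granule stage were thus higher in both G-CSF libraries, against 33.7% of all genes tested. Of the later stages, 6 of the 7 genes were lower in both, against 32.6% of all genes tested. *Mmp8* overlapped (727.7 and 810.6 FPKM in Control, 659.1 and 781.1 FPKM in G-CSF). All 7 genes of proliferating cells rose, with a median of 0.34 and a sum of 655.9 and 669.0 FPKM in Control and 819.2 and 797.8 FPKM in G-CSF. Their most abundant gene, *Pcna*, which encodes the sliding clamp of DNA polymerase, was at 251.7 and 253.9 FPKM in Control and at 290.0 and 289.5 FPKM in G-CSF. None of the marker genes in these 3 lists was at 0. With no filter on low values, the later neutrophil gene *Cxcr2* lost its call (adjusted p = 0.079, limma). Without the variance trend, 3 early granule genes (*Mpo*, *Prtn3* and *Ctsg*), 1 later neutrophil gene (*Camp*) and 0 proliferation genes were called. At an unadjusted p under 0.05 (limma), the counts in that fit were 4, 6 and 7. Among all 11922 genes tested, 1.01% were called in that fit, and 2126 were higher and 2053 lower at this cut. With any 1 library left out, *Pcna* lost its call (adjusted p from 0.0551 to 0.0729), and 5 or 6 later neutrophil genes were called. Their part in the rise of *Myc* and of MYC-activated genes and in the fall of *Mxd1* was not tested.

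Markers of other cell types that such a culture can hold are given next, and again 12.7% of all genes tested rose and 11.5% fell. Of 7 dendritic cell genes, 4 fell and 0 rose (median log2 fold change -0.65), and their sum was 583.2 and 486.7 FPKM in Control and 306.0 and 239.8 FPKM in G-CSF. The most abundant was *H2-Ab1*, an MHC class II gene, at 474.4 and 395.8 FPKM in Control and 228.7 and 182.3 FPKM in G-CSF. Of 6 macrophage genes, 4 fell and 0 rose (median -0.51), with sums of 171.5 and 194.0 FPKM in Control and 124.1 and 142.2 FPKM in G-CSF. Of these lists, 4 of 7 dendritic cell and 5 of 6 macrophage genes were lower in both G-CSF libraries, against 32.6% of all genes tested. The other genes of these lists overlapped. The leading macrophage gene, *Mrc1*, which encodes the mannose receptor, was at 84.9 and 106.0 FPKM in Control and 61.4 and 73.8 FPKM in G-CSF. Of 5 mast cell and basophil genes, 3 fell and 0 rose, with sums of 84.2 and 83.2 FPKM in Control and 54.4 and 58.3 FPKM in G-CSF, led by the basophil protease gene *Mcpt8* at 57.4 and 56.8 FPKM and 34.9 and 39.8 FPKM. Of 3 eosinophil genes, 2 fell and 0 rose, with sums of 260.4 and 338.4 FPKM in Control and 207.6 and 162.1 FPKM in G-CSF, led by the granule protein gene *Prg2* at 222.6 and 291.7 FPKM and 176.9 and 136.1 FPKM. At shares near those of all genes tested, the 7 monocyte genes included 1 that rose (*F13a1*) and 1 that fell (*Csf1r*). Their sum was 384.2 and 391.6 FPKM in Control and 368.5 and 371.9 FPKM in G-CSF, and the most abundant, *Csf1r*, which encodes the M-CSF receptor, was at 177.1 and 185.2 FPKM and 151.6 and 157.7 FPKM. Of 4 progenitor genes tested, 1 fell and 0 rose, and the list summed to 18.2 and 17.3 FPKM in Control and 14.3 and 14.3 FPKM in G-CSF. The gene that fell and was the most abundant was *Kit*, which encodes the stem cell factor receptor, at 11.9 and 11.1 FPKM in Control and 6.67 and 7.36 FPKM in G-CSF. *Cd34* (4.53 and 4.24 FPKM in Control, 5.61 and 4.94 FPKM in G-CSF) and *Hlf* (0.574 and 0.568 FPKM, 0.971 and 0.75 FPKM) were higher in both G-CSF libraries and not called, and the progenitor median was 0.05. In these 6 lists 0 genes were called without the variance trend (limma). An unadjusted p under 0.05 was then found for 4 dendritic cell, 4 macrophage, 5 mast cell and basophil and 2 eosinophil genes, all lower. It was also found for 1 monocyte gene in each direction, and for 2 progenitor genes that were higher and 1 that was lower. Among all 11922 genes tested, 1.01% were called in that fit, and 2126 were higher and 2053 lower at this cut. All 4 macrophage calls were lost without G-CSF replicate 1 and with no filter on low values, among them *Mrc1* (adjusted p = 0.0921 and 0.0701), and 1 of the 4, *C1qb*, was left without Control replicate 2 (0.00653). With no filter 3 dendritic cell, 2 mast cell and basophil and 1 eosinophil genes were called, with *Prg2* at 0.0531. Dendritic cell calls numbered 3 without Control replicate 1 or G-CSF replicate 2, and mast cell and basophil calls 2 without G-CSF replicate 1. *Csf1r* lost its call without G-CSF replicate 1 (0.0752) or Control replicate 2 (0.0691). *Fcer1a*, 1 of the 3 mast cell and basophil calls, was not called without Control replicate 2 or without G-CSF replicate 1. Its log2 fold change was then -0.81 and -0.71, against -0.94 in the main fit. The part of these cell types in the result was not tested.

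Lymphoid, erythroid and liver genes were close to 0. Beside the counts of this paragraph, 12.7% of all genes tested rose and 11.5% fell. The 6 B cell genes summed to 5.91 and 4.99 FPKM in Control and to 5.11 and 3.87 FPKM in G-CSF (most abundant *Cd79b*, at 3.24 and 3.06 FPKM and 3.97 and 2.84 FPKM), with 1 of 3 tested that fell, *Cd79a*. The 6 T and NK cell genes summed to 2.78 and 2.93 FPKM in Control and to 1.52 and 1.29 FPKM in G-CSF (most abundant *Cd3d*, at 1.53 and 1.57 FPKM and 0.859 and 0.570 FPKM). Both of the T cell genes tested, *Cd3d* and *Cd8a*, fell, and the NK cell gene *Ncr1* was listed at 0 in all 4 libraries. With no filter on low values, *Cd3d* lost its call (adjusted p = 0.0535, limma). The calls of *Cd79a*, *Cd3d* and *Cd8a* were lost without the variance trend (adjusted p = 0.0502, 0.0609 and 0.0525) and with 1 library left out, at up to 0.0849 (Control replicate 1), 0.0631 (G-CSF replicate 2) and 0.0964 (Control replicate 1). The 5 erythroid genes summed to 1.88 and 0.618 FPKM in Control and to 0.902 and 1.01 FPKM in G-CSF (most abundant *Hba-a1*, at 1.45 and 0.384 FPKM and 0.440 and 0.712 FPKM), and 0 of them could be tested. The 8 hepatocyte genes were included because a label mentions liver as a source of RNA. They summed to 2.30 and 2.29 FPKM in Control and to 1.38 and 1.92 FPKM in G-CSF (most abundant *Apoa2*, at 1.17 and 1.42 FPKM and 0.805 and 1.29 FPKM). *Alb*, *Apoa1*, *Ttr*, *Fga* and *Fgb*, which define hepatocytes, were listed at 0 in all 4 libraries. Of the surface markers of MDSCs, *Ly6c2*, the most abundant, was at 1105 and 1148 FPKM in Control and at 999.6 and 1066 FPKM in G-CSF. No row matched *Ly6g*. The 3 other surface genes summed to 1635 and 1675 FPKM in Control and to 1405 and 1492 FPKM in G-CSF, and 1 of them, *Itgam*, which encodes CD11b, fell (log2 fold change -0.35, adjusted p = 0.00556, or 0.0579 without the variance trend, where it was not called).

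The network genes lie on 8 chromosomes of GRCm38. *Myc* is at chr15:61985391-61990374 on the plus strand, *Mycn* at chr12:12936093-12941914 and *Max* at chr12:76937269-76962201 on the minus strand. *Mxd1* is at chr6:86647042-86669161, *Mxd3* at chr13:55325168-55329823 and *Mxd4* at chr5:34173883-34187720, each on the minus strand, and *Mxi1* is at chr19:53310518-53375810 on the plus strand. *Mnt* is at chr11:74830920-74845725 and *Mga* at chr2:119897228-119969581, both on the plus strand. *Mxd4* shared 0.0118% of its 75-base transcript windows with other genes, and the other members shared none. *Mxd3* and *Mxd4* overlap *Prelid1* and *Gm42846* on the other strand, and *Mxi1* overlaps *Gm10197* and the processed transcript *AC133451.2* there. The sources used here do not say whether the authors' counting used the strand. *Max* and *Mxd1* each overlap an unclassified transcript on their own strand, *Gm47218* and *Gm44292*. Reads from such overlaps cannot be told apart in these values.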

How the data were processed

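The authors deposited 1 table of values per library for 4 stranded mRNA libraries (75-base single-end reads), 2 Control and 2 G-CSF. The submitters' processing notes name TopHat2 2.0.13, Bowtie2 2.2.3, SAMtools 0.1.19, Cufflinks 2.2.1 and mm10. The unit of the deposited values was taken as FPKM from these tools and from the values. Reads were estimated with GENCODE M21 transcript lengths, less 210 bases: of 3866 low values, 72.1% came to whole reads within 0.1, where chance would give 20%. Lengths were found for 23976 of 24346 genes, and 1339 genes shorter than 300 bases were left out.

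A gene needed an estimate of 10 reads in at least 2 libraries and 15 over all, and the 11922 that passed were tested with limma 3.58.1 in R 4.3.3 (lmFit, eBayes with trend, two-sided) on log2(FPKM + 0.1), without a replicate block or rescaling, with Benjamini-Hochberg adjustment. The pseudocount draws fold changes of low genes toward 0. Alternatives were pseudocounts of 1 and 0.01 FPKM, no filter, a stricter filter (mean of at least 1 FPKM), upper-quartile and median-ratio scaling, no variance trend, a replicate block, and each library left out, where the lone library is assumed to vary like the other group. The steps were tested on simulated data. Replicates were compared and none was a copy of another.

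Members and lists were chosen with earlier results of these data known, and the list for MYC turnover was shortened by 1 gene after its values were seen. All members are named, and of every other network list the 4 genes with the smallest p (all of a list of up to 5), and of each marker list the most abundant gene. The marker lists were MDSC surface, primary granule stage, later neutrophil, monocyte, dendritic cell, macrophage, mast cell and basophil, eosinophil, erythroid, B cell, T and NK cell, progenitor, hepatocyte and proliferation. Python 3.11.15, numpy 2.4.6, pandas 2.3.3 and matplotlib 3.10.9 were used.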

Additional observations from a re-analysis of the deposited data

How the results depend on the processing

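Over pseudocount, filter and scaling, *Myc* and *Mxd1* kept their direction and their call, with adjusted p-values up to 0.0182 and 0.0144, and with 1 library left out up to 0.0174 and 0.0122. Without the variance trend, both lost it at the same log2 fold changes of 0.476 and -0.625 (adjusted p = 0.0599 and 0.0536), so that 0 members were called in place of 2, 3 MYC-activated genes in place of 49, 120 genes in place of 2886 at an adjusted p under 0.05, and 65 genes in place of 168 with a fold change over 2 as well. The last count was 56 with a pseudocount of 1 FPKM and 111 with the stricter filter. With upper-quartile scaling, 1311 genes rose and 1567 fell, in place of 1511 and 1375. With 1 library left out, between 1542 and 1904 genes had an adjusted p under 0.05, and the log2 fold changes of *Mxd3* and *Mxi1* ran from -0.168 to 0.095 and from -0.099 to 0.045, changing sign. The cause was not tested. Between 38 and 44 MYC-activated genes were then called. For the 39 genes followed, 280 of 312 log2 fold changes under settings that kept all libraries kept their direction and their side of the threshold, and 124 of 156 with 1 library left out. Same-numbered libraries deviated together (r = 0.253 across 11922 genes), but 2 pairs do not establish a pairing. With the replicate block, 3 members were called, the third being *Mxd4* (adjusted p = 0.0368), and calls were gained by *Mycl* (0.00987), *Ppp2r5a* (0.0249), *L3mbtl2* (0.0348), *Cdkn1b* (0.0164) and *Cebpa* (0.0202), with 54 MYC-activated genes and 3999 genes at an adjusted p under 0.05, among them all 2886. Depth limits *Mycn* and *Mlxipl*, which had at most 4 reads in a library.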
